A study of Homo sapiens with 9 samples.

Results

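The genes described here are 10 cell junction genes: the cadherins CDH1, CDH2, CDH16 and CDH17, the claudins CLDN1, CLDN2 and CLDN14, and the tight junction genes OCLN, TJP1 and F11R. They were chosen by name among 57773 annotated features, with earlier results of these data known. The reads assigned to each were compared across the doses of one compound. The cells were HepG2, a human line derived from a liver tumour. They received 0.1% DMSO alone (control), 2.5 µM TBOEP in 0.1% DMSO or 125 µM TBOEP in 0.1% DMSO, each for 72 h, so the solvent was shared by every group. TBOEP, tris(2-butoxyethyl) phosphate, is an organophosphate added to plastics and floor finishes as a plasticiser and flame retardant. Each dose group had 3 libraries from cells that were seeded, dosed and extracted apart, from stocks kept under 25 passages, and both doses are given in the labels as not cytotoxic. All 9 libraries come from a single cell line, so the replicates measure the spread between cultures of that line and not between people.

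Cadherins are calcium-dependent adhesion proteins that hold neighbouring cells together at adherens junctions, where their tails bind catenins that link to actin. Claudins and occludin form the sealing strands of tight junctions, and ZO-1, the product of TJP1, ties these strands to the cytoskeleton. In hepatocytes tight junctions close off the bile canaliculi, the channels between cells into which bile is secreted, and HepG2 cells can form such structures in culture.

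Between 2480964 and 11885877 reads per library were assigned to genes, the third library of each group, control included, being the shallowest of its group. Levels are given as CPM, the reads of a gene per 1000000 gene reads of its library, scaled by the trimmed mean of M values (TMM). Differences were tested with the quasi-likelihood test of edgeR on all genes with enough reads, 12901 in all, and p-values were adjusted by Benjamini-Hochberg over those genes. A gene is said to have risen or fallen where its adjusted p was under 0.05. Of the 10 junction genes, 7 had enough reads to be tested, and CDH17, CLDN2 and CLDN14 did not. Control 1 weighed most at the low dose: without it 213 genes passed at 2.5 µM against control, in place of 1425. At 125 µM against control 3575 genes passed without it, in place of 5180. Results of the 7 tested genes that it decides, and calls of list genes at 2.5 µM, are given with and without it. Calls of single list and marker genes at 125 µM against control are given from all libraries only.

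At 125 µM against control, CDH1 rose 3.92-fold, CLDN1 rose 1.61-fold and F11R rose 1.33-fold, while CDH16 was 13.1-fold lower. In bulk RNA, fewer cells with a gene and less RNA of it per cell cannot be told apart. CDH2, OCLN and TJP1 did not pass the test. These 4 of 7 tested genes stand beside 40.2% of all tested genes that passed in that comparison, 20.3% higher and 19.9% lower. At 2.5 µM against control, CDH1 and CLDN1 rose and CDH16 fell, 3 of 7 beside a background of 11.0% (6.02% higher, 5.03% lower). At 125 µM against 2.5 µM, CDH1 and F11R rose and CDH2 fell, 3 of 7 beside a background of 14.9% (7.48% higher, 7.44% lower). The dose groups and the control did not overlap for 5 of the 7 genes at 125 µM, where 50.9% of all tested genes did not overlap. They did not overlap for 5 of 7 at 2.5 µM, beside 28.2% of all tested genes. Between 125 µM and 2.5 µM, 3 of the 7 genes did not overlap, beside 32.8% of all tested genes. The median log2 fold change of the 7 genes was 0.09 at 125 µM against control, 0.21 at 2.5 µM against control and -0.11 at 125 µM against 2.5 µM, with 0.00, -0.01 and -0.00 over all tested genes. Both comparisons with control use the same 3 control libraries, so they are not independent of each other.

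**Figure D1:**
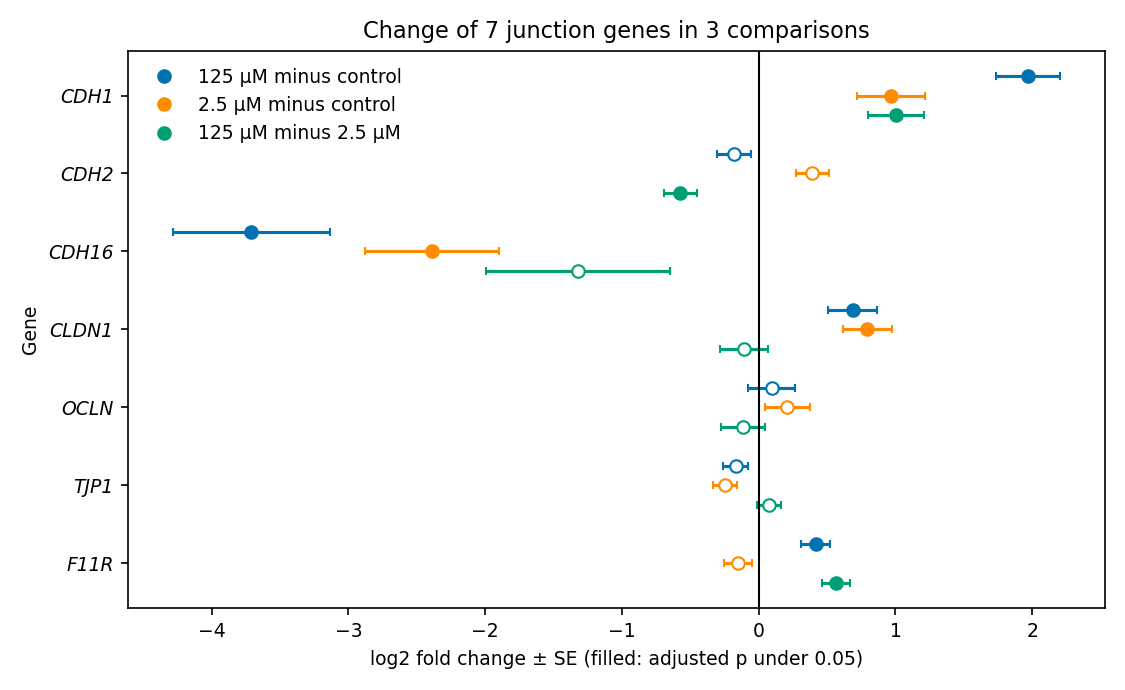
The horizontal axis gives the log2 fold change with its SE for each of the 7 tested junction genes, from the edgeR fit with 3 libraries per group, and filled points have an adjusted p under 0.05. CDH16 lies far to the left in both comparisons with control, at -3.71 and -2.39, and CDH1 lies to the right in all 3 comparisons.

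Levels were compared between genes as RPKM, the deposited measure of exon reads divided by exon length and library depth. In control cells the order was CDH2 (15.0 ± 2.98), F11R (14.0 ± 1.19), CLDN1 (12.5 ± 4.38), TJP1 (8.36 ± 0.239), CDH16 (8.00 ± 6.00), OCLN (1.81 ± 0.133) and CDH1 (0.768 ± 0.158; RPKM, SD, n = 3). The ranges of neighbouring genes in that order overlapped from CDH2 down to CDH16, and OCLN and CDH1 were separate from their neighbours. At 2.5 µM CLDN1 came first at 21.9 ± 3.75 RPKM and overlapped CDH2 at 20.1 ± 2.58 RPKM, ahead of F11R at 13.0 ± 1.63 RPKM and TJP1 at 7.25 ± 0.610 RPKM. OCLN, CDH16 and CDH1, at 2.07, 1.57 and 1.45 RPKM, overlapped each neighbour among them. At 125 µM CLDN1 (20.1 ± 1.06 RPKM) and F11R (19.5 ± 2.24 RPKM) overlapped at the top, followed by CDH2 at 13.6 ± 0.930 RPKM and TJP1 at 7.88 ± 0.344 RPKM. CDH1 at 3.00 ± 0.345 RPKM overlapped OCLN at 2.11 ± 0.556 RPKM, and CDH16 was below both at 0.900 ± 0.350 RPKM. CDH1 was thus below CDH16 in every control library on this per-length scale and above it in every library at 125 µM.

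CDH1 encodes E-cadherin, the classical cadherin of epithelia, which hepatocytes carry at their adherens junctions. The gene lies at chr16:68771128-68869451 on hg19, with 6154 bases of exon. It was measured at 3.88, 5.14 and 5.64 CPM in control cells, at 11.9, 6.51 and 9.29 CPM at 2.5 µM and at 16.1, 20.2 and 19.1 CPM at 125 µM. The 3 groups did not overlap, and every library at 125 µM was above every library at 2.5 µM, which was above every control. Its log2 fold change in the edgeR fit was 1.97 ± 0.23 (SE) at 125 µM against control, with an adjusted p of 2.82e-05, and 0.97 ± 0.25 at 2.5 µM against control, with an adjusted p of 0.0256. The change at 2.5 µM was the less settled: the adjusted p was 0.178 without control 1, 0.115 without the first 2.5 µM library and 0.0566 without the third, in a range of 0.000273 to 0.178 over 17 alternatives. Behind these levels were 37, 26 and 22 reads in control cells, 124, 70 and 23 reads for 2.5 µM, and 133, 243 and 52 reads for 125 µM.

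CDH2 encodes N-cadherin, the other classical cadherin of hepatocytes, and lies at chr18:25530930-25757410 on hg19. Its level was 65.1, 90.8 and 81.3 CPM in control cells, 93.0, 101 and 118 CPM at 2.5 µM, and 64.6, 74.2 and 68.3 CPM at 125 µM. All 2.5 µM libraries were above all others, whereas the 125 µM libraries overlapped the controls. Against control, the log2 fold change of CDH2 was 0.39 ± 0.12 at 2.5 µM, with an adjusted p of 0.0511, and -0.18 ± 0.12 at 125 µM, with an adjusted p of 0.259. Neither passed, but the value at 2.5 µM lay at the threshold and passed under 7 of the 17 alternatives tried, with DESeq2 among them (adjusted p of 0.0394, range over the 17 of 0.00454 to 0.266). The low end of that range, 1 of the 7 passes, came from the fit with no filter, which gave far smaller adjusted p for some genes than the main fit. Between the doses CDH2 fell by 0.57 on the log2 scale at 125 µM against 2.5 µM (SE 0.12, adjusted p = 0.00624 in the edgeR test). CDH1 passed in the opposite direction in that comparison. The window around an annotated start of CDH2, from 250 bases before to 50 bases after it, is printed because CDH2 and CLDN1 are the genes past the threshold in any comparison for which the RefSeq table held such a window. It spans chr18:28177081-28177380 on the minus strand of GRCh38.p14, written 5′ to 3′, and the capitals mark the 1 GC box match, GGGCGG or its reverse complement CCGCCC.
CDH2: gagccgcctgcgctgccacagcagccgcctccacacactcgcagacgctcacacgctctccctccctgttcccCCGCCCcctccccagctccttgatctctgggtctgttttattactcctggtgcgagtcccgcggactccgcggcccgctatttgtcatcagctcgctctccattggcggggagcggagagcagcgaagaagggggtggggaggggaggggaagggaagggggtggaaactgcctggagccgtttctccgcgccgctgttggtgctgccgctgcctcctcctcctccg
Of the 35116 such windows in the table, 45.0% hold a GC box on either strand. The E-box CAGGTG or its reverse complement CACCTG, the letters that SNAI and ZEB factors are known to bind, was not in this window, and 20.6% of all windows hold it. A second window of CDH2, at another annotated start, held 0 matches of either motif. A match or its absence describes these letters only. CDH1, CDH16 and F11R were not matched in the table.

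**Figure D2:**
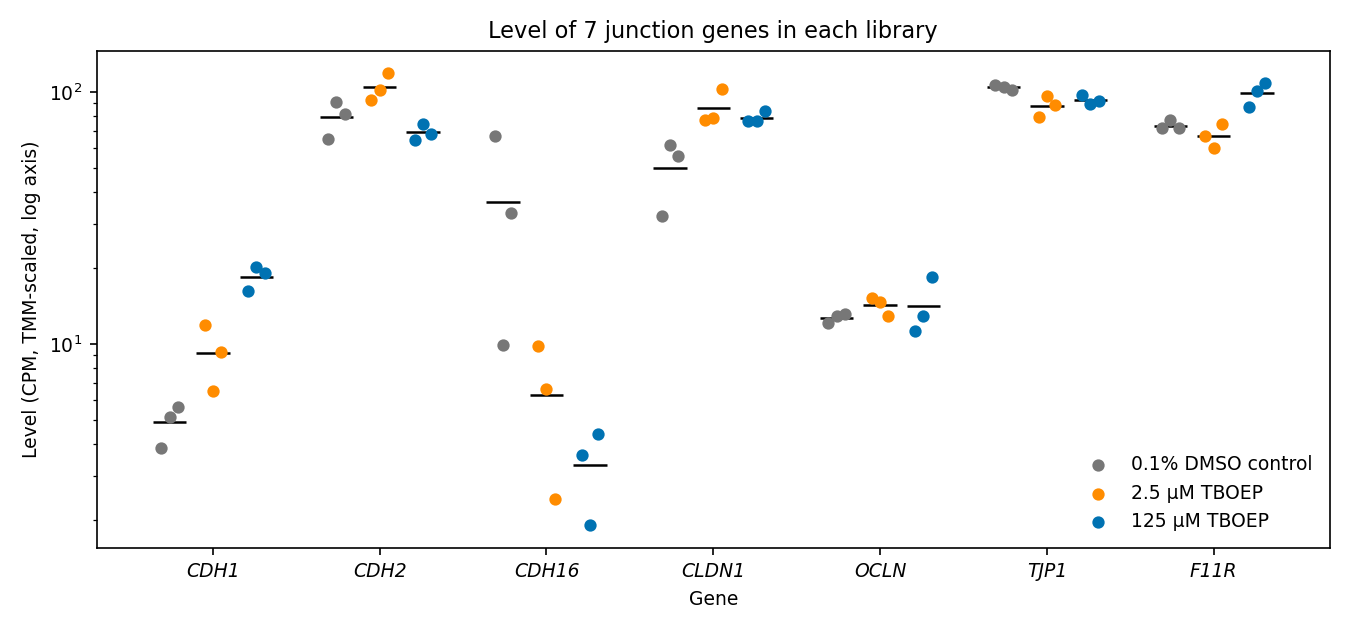
The vertical log axis gives the TMM-scaled CPM of the 7 tested junction genes, with 1 point per library, a line at the mean of the 3 libraries, and the dose groups side by side in order of dose. CDH1 climbs with dose without overlap, CDH16 spreads from 9.89 to 66.8 CPM among controls and lies at 4.40 CPM or below at 125 µM.

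CDH16 encodes Ksp-cadherin, a cadherin with a short tail that is known best from kidney tubules and thyroid. It lies at chr16:66942025-66952887 on hg19, on the same chromosome as CDH1. It was measured at 66.8, 9.89 and 33.1 CPM in control cells, at 9.85, 6.60 and 2.42 CPM at 2.5 µM and at 3.64, 1.91 and 4.40 CPM at 125 µM. Control libraries differed more in CDH16 than in any other of the 7 tested genes, and the highest 2.5 µM library was only just below the lowest control. The log2 fold change was -3.71 ± 0.58 at 125 µM against control, with an adjusted p of 0.000191, and -2.39 ± 0.49 at 2.5 µM against control, with an adjusted p of 0.0106 in the edgeR test. The fall at 125 µM was smaller without control 1, which held 637 of the control reads beside 50 and 129 in the others: -2.83 with an adjusted p of 0.000584. At 2.5 µM it did not pass without that library, at -1.51 with an adjusted p of 0.0750, the highest over the alternatives. From RPKM with limma, which understates changes of low values, the log2 fold change of CDH16 was -2.32 at 125 µM and -1.83 at 2.5 µM, each against control, with adjusted p of 0.00530 and 0.0483. On the RPKM scale the groups at 2.5 µM and control overlapped, with 2.48 RPKM in the first 2.5 µM library against 2.13 RPKM in control 2. Between 125 µM and 2.5 µM the log2 fold change of CDH16 was -1.32 ± 0.67, which did not pass, with an adjusted p of 0.204.

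Part of the CDH16 reads lay in introns. In control cells 17.0, 22.0 and 10.1% of its gene reads were intronic, beside 8.74, 8.45 and 0% for 2.5 µM, and 3.33, 0 and 0% for 125 µM. Control libraries were all above the dosed ones in that share, which rests on 132 intron reads in control cells, 15 at 2.5 µM and 1 at 125 µM. No test was made of this share, and the fit on exon reads alone gave the same calls for CDH16. CDH17, the liver-intestine cadherin, had 1 read in all 9 libraries together, in the second library at 125 µM. Its 0 reads in the pooled control libraries allow a level of up to 0.158 CPM (3 reads) and its 0 reads at 2.5 µM allow up to 0.126 CPM. These limits are without TMM scaling and cover counting error only.

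CLDN1 encodes claudin-1, a sealing claudin of the hepatocyte tight junction that is also known as an entry factor for hepatitis C virus. It lies at chr3:190023490-190040264 on hg19. Its level was 32.3, 61.7 and 55.7 CPM in control cells, 77.6, 78.7 and 102 CPM at 2.5 µM, and 76.5, 76.4 and 83.7 CPM at 125 µM. Every dosed library was above every control, while both doses overlapped each other. In the edgeR fit CLDN1 rose by 0.69 ± 0.18 on the log2 scale at 125 µM against control, with an adjusted p of 0.00750. It rose by 0.80 ± 0.18 at 2.5 µM against control, with an adjusted p of 0.0153, which became 0.0507, the highest over the alternatives, without the third 2.5 µM library. The difference between 125 µM and 2.5 µM was -0.11 ± 0.17, with an adjusted p of 0.732. The window around its annotated start, 250 bases before to 50 after, spans chr3:190322397-190322696 on the minus strand of GRCh38.p14 and is printed 5′ to 3′ with its 2 GC box matches in capitals, 1 in each orientation.
CLDN1: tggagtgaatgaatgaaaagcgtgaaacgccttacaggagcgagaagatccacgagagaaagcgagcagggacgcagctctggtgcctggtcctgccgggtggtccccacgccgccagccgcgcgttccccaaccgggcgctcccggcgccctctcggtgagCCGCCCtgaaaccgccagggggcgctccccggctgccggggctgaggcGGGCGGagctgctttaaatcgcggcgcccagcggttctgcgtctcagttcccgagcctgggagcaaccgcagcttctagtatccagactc
The E-box letters searched above were not in this window either. They were in windows of OCLN, CLDN14 and TJP1, which are not printed.

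The other claudins among the 10 genes were close to silent. CLDN2, a claudin that forms cation pores, had 0 reads in control cells, 3 at 2.5 µM and 2 at 125 µM. CLDN14, a barrier claudin known from the inner ear and also from liver, had 4 reads in control cells, 7 at 2.5 µM and 3 at 125 µM. Pooled over libraries and without TMM scaling, CLDN14 amounted to 0.210 CPM in control cells (exact 95% Poisson interval 0.0573 to 0.539), 0.294 CPM at 2.5 µM (0.118 to 0.607) and 0.132 CPM at 125 µM (0.0273 to 0.387). These intervals overlap and cover counting error only, so no difference was detectable at this depth. The gene body of CLDN2 on chromosome X overlaps MORC4, to which 1791 reads were assigned.

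OCLN encodes occludin, a membrane protein of the tight junction strand, and lies at chr5:68788119-68853931 on hg19. Its level was 12.1, 12.9 and 13.1 CPM in control cells, 15.2, 14.7 and 12.9 CPM at 2.5 µM, and 11.3, 12.9 and 18.4 CPM at 125 µM. All groups overlapped. The log2 fold change was 0.09 ± 0.17 at 125 µM against control (adjusted p = 0.690 in edgeR) and 0.21 ± 0.17 at 2.5 µM against control (adjusted p = 0.448). Occludin values are uncertain to the extent that a partial copy of the gene nearby and the overlapping feature GUSBP3, with 409 reads, share its reads, although all of its reads were deposited as uniquely placed.

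TJP1, the gene of the scaffold ZO-1, lies at chr15:29991571-30261068 on hg19. It was measured at 106, 105 and 102 CPM in control cells, 79.3, 96.1 and 88.5 CPM at 2.5 µM, and 97.0, 89.1 and 92.1 CPM at 125 µM. Every dosed library was below every control, yet the difference did not pass at either dose. The log2 fold change was -0.17 ± 0.09 at 125 µM against control, with an adjusted p of 0.144, and -0.25 ± 0.09 at 2.5 µM against control, with an adjusted p of 0.0855 in the edgeR test. It passed at 2.5 µM without the second 2.5 µM library, with an adjusted p of 0.0494 in a range of 0.0494 to 0.247 over the alternatives.

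F11R encodes JAM-A, an immunoglobulin-type adhesion protein of tight junctions, and lies at chr1:160965001-160991138 on hg19. It stood at 71.6, 77.2 and 71.6 CPM in control cells, 66.9, 59.7 and 74.3 CPM at 2.5 µM, and 86.6, 101 and 109 CPM at 125 µM. Libraries at 125 µM were above all others, while 2.5 µM and control overlapped. F11R rose by 0.42 ± 0.10 on the log2 scale at 125 µM against control, with an adjusted p of 0.00505, and by 0.57 ± 0.10 at 125 µM against 2.5 µM, with an adjusted p of 0.00225. At 2.5 µM against control its log2 fold change was -0.15 ± 0.10, which did not pass, with an adjusted p of 0.373. The feature RP11-544M22.13 overlaps F11R and had 21 reads. F11R had 0 intron reads and 1.92% of its exon reads were spliced, and how the annotation behind these counts models the gene was not checked, so its level and RPKM rank carry that doubt.

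The make-up of each family was described by the deposited RPKM summed over its annotated genes. For 23 cadherin genes the sum was 18.7 ± 1.08 RPKM at 125 µM and 24.6 ± 2.89 RPKM in control cells (SD, n = 3 each), and the groups did not overlap. The exact two-sided permutation p was 0.1, the smallest that 3 libraries against 3 allow, so no test of these sums or shares could pass. At 2.5 µM the cadherin sum was 24.2 ± 1.85 RPKM. CDH16 made up 51.4, 9.81 and 31.4% of the cadherin sum in control cells, 10.4, 6.98 and 2.49% at 2.5 µM, and 5.48, 2.64 and 6.44% at 125 µM. CDH2 was the largest part in 8 of the 9 libraries, from 62.5 to 87.9% there, and CDH16 was the largest in control 1, where CDH2 held 43.2%. The level of CDH1 as a share of that of CDH2, both per length, was 4.94, 4.74 and 5.65% in control cells, 10.6, 5.18 and 6.17% at 2.5 µM, and 20.5, 22.3 and 23.1% at 125 µM. The 125 µM libraries were above all others in this ratio, and the ratio overlapped between 2.5 µM and control.

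For 23 claudin genes the sum was 42.7 ± 2.61 RPKM at 125 µM and 32.4 ± 3.84 RPKM in control cells, and it was 44.6 ± 5.75 RPKM at 2.5 µM (SD, n = 3 each). Both doses lay above the controls in every library. RPKM carries no TMM scaling. From RPKM with limma the median log2 fold change of all genes was 0.12 at 125 µM and 0.05 at 2.5 µM, each against control. The part of that shift in these sums was not tested. CLDN1 held 27.2, 45.7 and 40.5% of the claudin sum in control cells, 51.1, 44.4 and 51.9% at 2.5 µM, and 47.6, 46.9 and 46.6% at 125 µM. CLDN4, a claudin of many secretory epithelia, was second in each library and held 24.5 ± 0.791% at 125 µM against 23.1 ± 3.58% in control cells. CLDN12 held 1.81 ± 0.198% at 125 µM against 5.55 ± 0.858% in control cells, with no overlap.

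**Figure D3:**
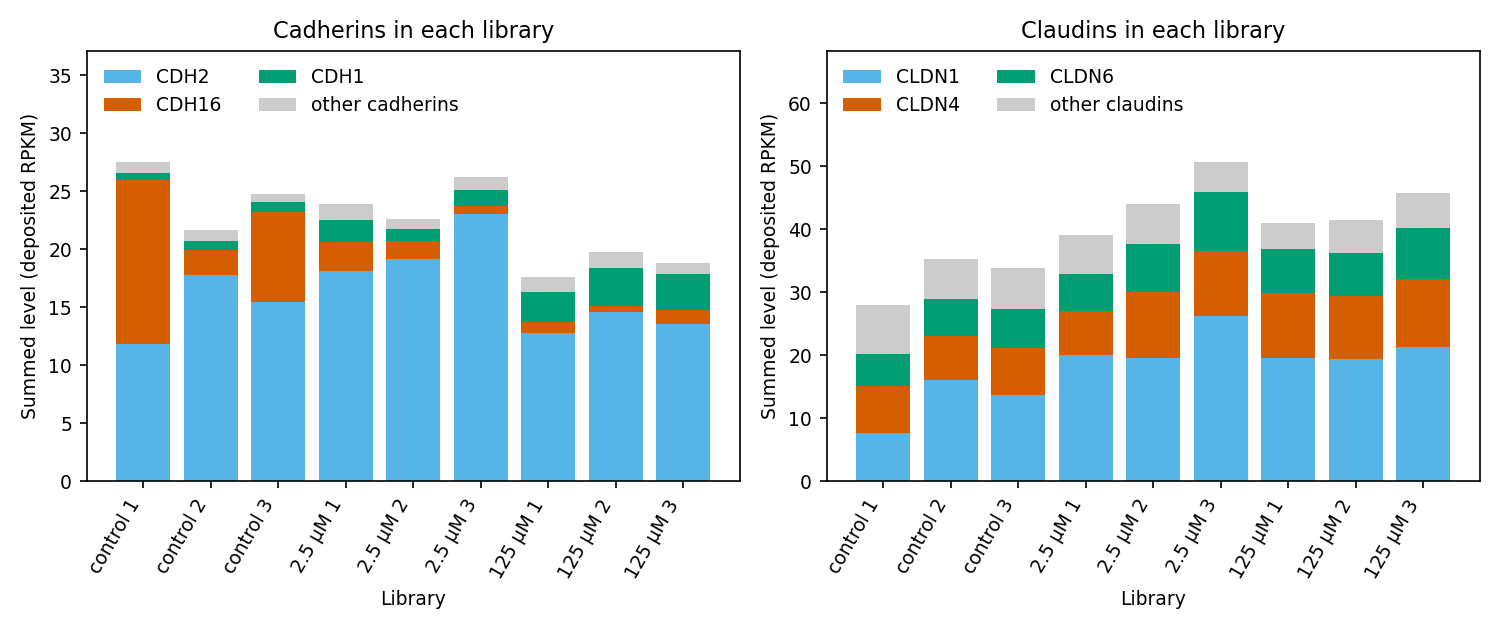
Stacked bars give the deposited RPKM summed over 23 cadherin genes and over 23 claudin genes in each library, in order of dose, with the largest contributors in colour. CDH16 shrinks to 6.44% of the cadherin sum or less at 125 µM, and CDH1 gains; the claudin sum is higher at both doses than in the controls, and CLDN1 is its largest part in each library.

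CDH16 and CDH1 had the largest absolute changes at 125 µM, and the tested genes of most similar profile were sought for each. Likeness was the root mean square difference of log2 CPM over the 9 libraries after each gene was centred on its own mean. For CDH16 the nearest were HID1, a protein of the secretory pathway, at 0.34 log2 units, ANXA13, an annexin of epithelial cells, at 0.38 and SLC6A14, an amino acid transporter, at 0.43. HID1 was measured at 124, 23.5 and 75.7 CPM in control cells and SLC6A14 at 189, 49.9 and 161 CPM, so both shared the high control 1, low control 2 order of CDH16. HID1 stood at 8.49, 5.31 and 10.3 CPM at 125 µM. For CDH1 the nearest were MPZL2, an adhesion protein of epithelia, at 0.21 log2 units, and CSTB, a cathepsin inhibitor, at 0.21. CSTB had 194, 232 and 177 CPM at 125 µM against 56.4, 73.0 and 66.7 CPM in control cells. These genes were picked for likeness, so no test was made.

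**Figure D4:**
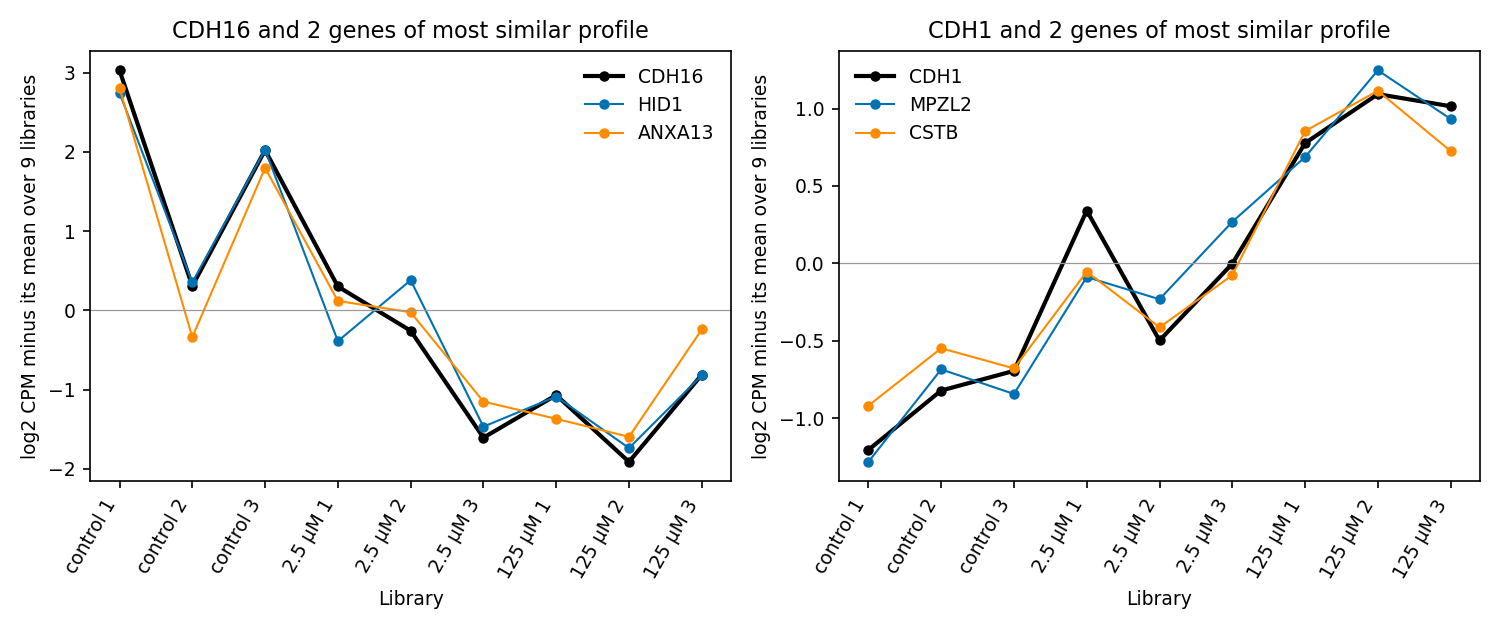
The vertical axis gives log2 CPM minus the gene's own mean over 9 libraries, for CDH16 and CDH1 with 2 genes of most similar profile each. CDH16 and its neighbours peak in control 1, dip in control 2 and are low at 125 µM, while CDH1 and its neighbours climb with dose.

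Among other genes of cell junctions and their regulators, 154 were listed, 153 of them were in the files and 77 were tested. At 125 µM against control 16 of the 77 rose and 19 fell, 45.5% beside the 40.2% of all tested genes. Without control 1, 12 rose and 11 fell, when 3575 of 12705 genes passed, so some of the single calls below depend on that library. At 2.5 µM 5 rose and 5 fell, 13.0% beside 11.0%, and at 125 µM against 2.5 µM 7 rose and 9 fell, 20.8% beside 14.9%. The count at 2.5 µM was 0 without control 1 in the edgeR fit, when 16 of the 77 had an unadjusted p under 0.05. It was 9 with DESeq2 on all libraries. The median log2 fold change of the 77 genes at 125 µM against control was 0.02, beside 0.00 over all tested genes.

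Of the 19 other cadherins 4 were tested, with a median log2 fold change of 0.44. CDH4, retinal cadherin, rose at 125 µM to 5.46 ± 0.390 CPM, against 3.42 ± 1.02 CPM in control cells, a log2 fold change of 0.69 ± 0.24 with an adjusted p of 0.0333. The groups did not overlap, and DESeq2 called 0 of the 4. Among 12 tested catenins, nectins and partners, 3 rose and 2 fell, with a median of 0.07. VCL, the actin linker vinculin, rose to 82.9 ± 5.75 CPM at 125 µM, against 57.4 ± 4.16 CPM in control cells. PVRL1, the gene of nectin-1, rose by 0.60 and PVR, a nectin-like receptor, by 0.59 on the log2 scale, the last with reads that could be shared with CTB-171A8.1 and CEACAM19. PVRL3, the gene of nectin-3, fell to 26.2 ± 3.70 CPM at 125 µM, against 52.0 ± 5.67 CPM in control cells, with an adjusted p of 3.55e-05, and fell by 0.45 at 2.5 µM as well, a call that was lost without control 1. The catenin genes CTNNA1, CTNNB1, CTNND1 and JUP, chosen after their values were seen, had log2 fold changes from -0.02 to 0.14 at 125 µM and did not pass.

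Other claudins went both ways at 125 µM, where 2 of 7 tested rose and 3 fell, with a median log2 fold change of 0.31. CLDN12 fell by 1.42 on the log2 scale, to 6.08 ± 1.74 CPM, against 14.8 ± 1.57 CPM in control cells, and CLDN19 fell by 1.75 (1.40 ± 0.375 CPM against 4.35 ± 0.560 CPM in control cells). CLDN15 fell by 0.79. CLDN10 rose, at 2.43, 3.15 and 2.20 CPM at 125 µM against 0.734, 0.989 and 0 CPM in control cells, with an adjusted p of 0.00278. CLDN4, which falls outside the naming rule and was chosen after its values were seen, was the other claudin to rise, by 0.43 with an adjusted p of 0.0295. CLDN12 overlaps GTPBP10 and CDK14, and CLDN10 overlaps DZIP1, so their values are uncertain to the extent of shared reads.

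Of 24 other tested tight junction proteins, 3 rose and 7 fell at 125 µM, with a median log2 fold change of -0.15. PRKCI, the atypical protein kinase C of the polarity complex, rose by 0.57 at 125 µM. INADL, the polarity scaffold PATJ, fell by 1.13 on the log2 scale, and AMOTL2, an angiomotin that binds ZO and YAP proteins, fell by 1.63 on the log2 scale. Desmosome genes, 7 tested with a median log2 fold change of 0.14, gave 2 rises and 1 fall. DSG2, a desmoglein, rose to 180 ± 7.62 CPM at 125 µM, against 102 ± 13.3 CPM in control cells, PKP3 rose by 0.37 and PKP4 fell by 0.29. Of 3 tested connexins none passed at 125 µM against control in edgeR, 0 had an unadjusted p under 0.05 and DESeq2 called 0, and their median log2 fold change was -0.01. GJB1, the main hepatocyte connexin, was measured at 66.8 ± 7.09 CPM at 125 µM and 70.2 ± 8.42 CPM in control cells.

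**Figure D5:**
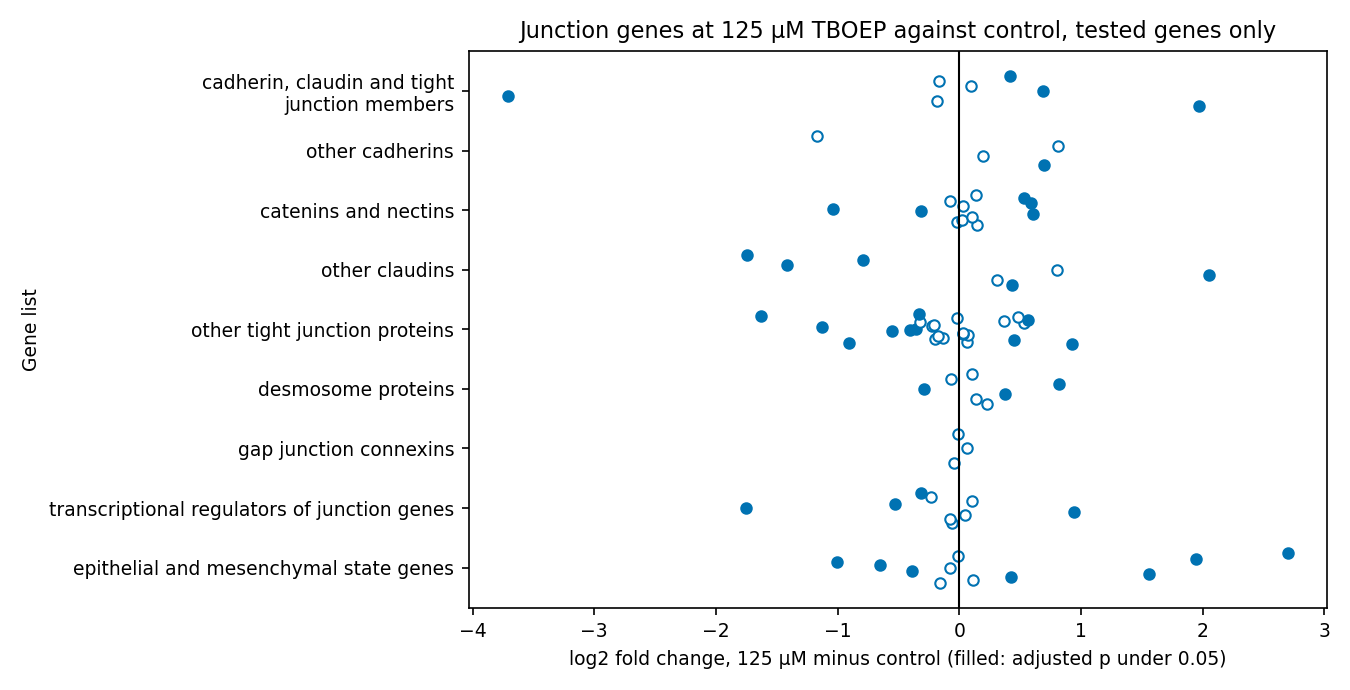
Each point is a tested gene, placed by its log2 fold change at 125 µM minus control and by its list, and filled points have an adjusted p under 0.05. The tested junction genes span -3.71 (CDH16) to 1.97 (CDH1), and most lists hold filled points on both sides of 0. These genes and the lists were chosen with earlier results of these data known, so their spans are not compared.

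Transcription factors known to act on junction genes gave 1 rise and 3 falls among 9 tested at 125 µM, with a median log2 fold change of -0.08. ELF3, an epithelial ETS factor, rose to 57.6 ± 3.66 CPM, against 30.4 ± 3.95 CPM in control cells, and it also rose at 2.5 µM, by 0.53 with an adjusted p of 0.0108, but not without control 1, when 0 of the 77 list genes passed at that dose. KLF4 fell to 5.62 ± 1.63 CPM at 125 µM, against 17.0 ± 5.80 CPM in control cells, KLF5 fell by 0.53, and TCF3, the E2A factor known to repress CDH1, fell by 0.32. SNAI1 and ZEB1, which are also known to repress CDH1, were chosen after their values were seen. SNAI1 had 3.32 ± 0.577 CPM at 125 µM against 3.21 ± 0.715 CPM in control cells, ZEB1 had 36.8 ± 3.72 CPM against 39.4 ± 2.35 CPM in control cells, and neither passed.

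Of 11 tested epithelial and mesenchymal state genes, 4 rose and 3 fell at 125 µM, with a median log2 fold change of -0.01. KRT19, a keratin of bile duct and progenitor cells, rose to 217 ± 19.7 CPM, against 74.7 ± 15.9 CPM in control cells, and KRT18, a keratin of simple epithelia, rose by 0.42. AXL, a receptor tyrosine kinase counted among mesenchymal genes, rose to 37.3 ± 9.25 CPM at 125 µM, against 6.04 ± 1.84 CPM in control cells. FN1, fibronectin, fell by 0.65. The other 3 that passed, chosen after their values were seen, were the mesenchymal gene MMP2, which rose, and the epithelial splicing factor ESRP2 and the mesenchymal S100A4, which fell. KRT18 overlaps KRT8 and ELF3 overlaps RP11-465N4.4, so their values may hold shared reads.

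Cell type markers were read beside these results. The hepatocyte list, 11 of 11 tested, summed to 66788 to 89422 CPM in control cells, 55127 to 67687 CPM at 2.5 µM and 39387 to 46212 CPM at 125 µM, and 7 of its genes fell and 0 rose at 125 µM against control. Its sum was highest in control 1 and lowest in control 2 among the controls, as was CDH16. That order was not shared by the whole list. ALB, APOA1, APOB, TF and AFP had it, whereas TTR, SERPINA1 and HNF4A were highest in control 3 and FGA, FGB and FGG were lowest in control 1. The biliary list, 5 of 8 tested with CFTR at 0, summed to 1609 to 2423 CPM in control cells and 1010 to 1459 CPM at 125 µM, with 2 rises (KRT19 and CLDN4) and 2 falls (SPP1 and SOX9). Most of that sum was SPP1, at 1761 ± 424 CPM in control cells and 969 ± 252 CPM at 125 µM. Endothelial markers, which include the cadherin CDH5 and the claudin CLDN5, summed to 3.17 to 5.87 CPM in control cells, 3.44 to 5.25 CPM at 2.5 µM and 13.6 to 17.3 CPM at 125 µM, with KDR at 0. Of 3 tested, ESAM and TIE1 rose at 125 µM and VWF fell. VWF overlapped between the groups, at 0.607, 0.166 and 1.47 CPM at 125 µM against 3.25, 0.594 and 1.80 CPM in control cells. TIE1 in control cells was at 0.524, 0.396 and 0.257 CPM, where 3 reads equal 0.298, 0.609 and 0.746 CPM without TMM scaling. Most of the sum at 125 µM was ESAM, at 11.2 ± 1.78 CPM against 1.82 ± 0.422 CPM in control cells. Fibroblast markers, with COL1A2, DCN, LUM and THY1 at 0, summed to 40.0 to 46.2 CPM in control cells and 24.8 to 33.3 CPM at 125 µM, and 1 of 2 tested fell. Among leukocyte markers PTPRC and CD3E were at 0, 1 of 3 tested rose and 1 fell. Of the intestinal list 1 of 2 tested fell and CDX1 was at 0, and of the kidney list none was tested and UMOD and SLC12A1 were at 0. The part of these changes in the junction gene results was not tested.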

How the data were processed

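Polyadenylated RNA of 9 HepG2 cultures was sequenced as 50 bp pairs from TruSeq Stranded mRNA libraries, and reads were mapped to hg19 with CLC Genomics Workbench, per the labels' protocols and the series' design text. Whether counting used strand is not given in the sources used here. The deposited read counts per gene are raw, with exon and intron reads together, per the file headers. RPKM, also deposited, divides exon reads by exon length and library depth, per the file headers.

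Total gene reads were filtered with filterByExpr, scaled by TMM and tested with edgeR 4.0.16 (R 4.3.3) in 1 fit of all 9 libraries, with Benjamini-Hochberg adjustment over 12901 genes. The fit was tested on simulated data. The common biological coefficient of variation was 10.0%, and 3 reads equal 0.252 to 1.21 CPM per library without TMM scaling. The genes described and the lists were chosen with earlier results of these data known. Besides the 10 genes, up to 4 genes per list are named, those past the threshold at 125 µM against control with the smallest adjusted p (the most abundant where none passed); some genes that meet these rules are not reported here. Likeness used log2 CPM with a prior count of 2. Alternatives were upper-quartile scaling, DESeq2 1.42.0, no filter, a stricter filter (10 reads and 1 CPM in 3 libraries), exon reads, unique reads, log2(RPKM + 0.5) with limma 3.58.1 over genes with at least 0.5 RPKM, the replicate number as a block, and leaving out each library. Promoter windows are from RefSeq on GRCh38.p14, and 6 of the 10 genes matched.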

Additional observations from a re-analysis of the deposited data

Results flagged for a closer look

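For 3 of the 7 tested genes the change at 125 µM differed from that at 2.5 µM by a test of the difference itself, the edgeR contrast of both doses. The share over all tested genes was 14.9%. For CDH1 the difference was 1.00 on the log2 scale (adjusted p = 0.00517), with 18.5 ± 2.08 CPM at 125 µM against 9.22 ± 2.68 CPM at 2.5 µM (SD, n = 3 each). For CDH2 it was -0.57 (adjusted p = 0.00624), with 69.0 ± 4.86 CPM at 125 µM against 104 ± 12.9 CPM at 2.5 µM. For F11R it was 0.57 (adjusted p = 0.00225), with 98.6 ± 11.1 CPM at 125 µM against 67.0 ± 7.33 CPM at 2.5 µM. The groups did not overlap for any of the 3 genes, nor for 32.8% of all tested genes. CDH2 and F11R each had changes of opposite sign at both doses against control, of which only that of F11R at 125 µM passed.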

How the results depend on the processing

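The 7 tested genes in 3 comparisons gave 21 log2 fold changes, each under 17 alternatives. Of the 357 values, 335 kept their direction and side of the threshold, 6 lost the threshold, 11 gained it and 5 changed sign. The changes of sign were all of values that did not pass: OCLN at 125 µM against control without the third 125 µM library (-0.042, range without single libraries -0.042 to 0.242), CLDN1 at 125 µM against 2.5 µM without the third 2.5 µM library (0.00327, range -0.175 to 0.00327), OCLN at 125 µM against 2.5 µM from RPKM (0.000941) and without the first 125 µM library (0.0265, range -0.256 to 0.0265), and TJP1 at 125 µM against 2.5 µM without the first 2.5 µM library (-0.00261, range -0.00261 to 0.158). Losses were of CDH1, CDH16 and CLDN1 at 2.5 µM against control, and CDH1 there had an adjusted p of 0.0574 from RPKM. CDH2 at 125 µM against control passed without control 1 (adjusted p = 0.0480). CDH16 at 125 µM against 2.5 µM passed with no filter (2.89e-07) and without control 2 (0.0384). The edgeR fit with no filter gave far smaller adjusted p for some genes than the main fit. For CDH16 at 125 µM against control it gave 2.96e-79 in place of 0.000191, although the controls spread from 9.89 to 66.8 CPM. For CDH1 it gave 1.48e-20 in place of 2.82e-05. Calls gained in that fit, and low ends of ranges that come from it, therefore carry little weight.

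Leaving out 1 library, the count of the 7 genes past the threshold ranged from 4 to 5 at 125 µM against control, from 1 to 4 at 2.5 µM against control (1 without control 1 and 1 without the third 2.5 µM library) and from 3 to 4 at 125 µM against 2.5 µM. Calls over all tested genes dropped as well. At 2.5 µM against control they were 213 of 12705 without control 1 and 468 of 13435 without the third 2.5 µM library, against 1425 of 12901 with all libraries. Counts over the 77 list genes ranged from 23 to 36, from 0 to 13 and from 2 to 22 in the same comparisons. The count of 23 came without control 1 and without the second 125 µM library. At 2.5 µM it was 0 without control 1, 2 without the third 2.5 µM library, 3 without control 3 and 6 without the first 125 µM library. At 125 µM against 2.5 µM it was 2 without the second 125 µM library, 6 without the second 2.5 µM library, 8 without the first 125 µM library and 9 without the first 2.5 µM library. From RPKM with limma the list counts were 4 at 2.5 µM against control and 8 at 125 µM against 2.5 µM. The cause was not tested. RPKM without TMM moved the median of all genes by 0.12 at 125 µM against control, and higher genes were 69.0% of the calls, against 50.5% with TMM. The other shares of higher calls from RPKM were 71.2%, against 54.5%, at 2.5 µM and 67.7%, against 50.1%, at 125 µM against 2.5 µM. With upper-quartile scaling CDH2 passed at 2.5 µM (adjusted p = 0.0438).

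The replicate numbers were checked for pairing. Same-numbered libraries had correlations of their deviations from -0.24 to 0.18, and differently numbered ones from -0.27 to 0.27. With 3 libraries per group these values cannot show whether same-numbered libraries shared a day or batch. With the replicate block, CDH2 at 2.5 µM against control had an adjusted p of 0.0275 and no other call among the 7 genes changed; 5066, 1274 and 1771 genes passed in the 3 comparisons, against 5180, 1425 and 1925 without it.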

Other observations

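The split of exon reads differed among these genes. Reads across splice junctions made up 70.2% of the exon reads of OCLN, more than in 93.3% of the 11085 genes with at least 100 exon reads, and 1.92% of those of F11R, more than in 2.81% of these genes. The median gene had 37.9%. CLDN1 had 11.3%, and CDH1, CDH2, CDH16 and TJP1 lay between 33.9 and 43.4%. OCLN and F11R had 0 intron reads in the 9 libraries together, where the median gene had 6.96% of its gene reads in introns. For F11R these shares rest on 98 spliced reads of 5100 exon reads, and for OCLN on 617 of 879. How the annotation behind the counts models F11R was not checked.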
